A study of Mus musculus with 12 samples.

Results

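For MTEC1 cells, a mouse line labelled as medullary thymic epithelial, 1750 assembled long noncoding RNA (lncRNA) transcripts were listed without a gene name. They were the rows of the deposited lncRNA table with a transcript name beginning MSTRG, the prefix StringTie gives to what it assembles, and with a dot in place of a gene name. They made up 1750 of 42870 rows, beside 4943 assembled transcripts with a gene name and 36177 transcripts with an annotation identifier. The 1750 transcripts fell into 1667 assembler loci, of which 1628 held 1 nameless transcript and 39 held more.

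Total RNA libraries of 2 groups were used, each with 3 libraries of wild-type cells. One group received PAMK at 50 µg/ml for 12 h, and the control cultures received none and were grown for 6 h according to the series design, so treatment and culture time cannot be told apart if that text is right. The name PAMK usually stands for polysaccharide extracted from Atractylodes macrocephala Koidz, a plant used in Chinese medicine. Whether each library had its own culture is not stated, so the spread among these libraries may be technical. The p-values of single rows rest on that spread and also on the spread of other rows of like level. In RNA from whole cultures, fewer cells of a type and less RNA per cell cannot be told apart.

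The labelled cell type was not borne out by its markers. All 11 thymic epithelial markers examined lay under 0.5 FPKM in every library, and Epcam, Krt5, Krt14, Aire and Ccl21a were listed at 0. Their summed level was 0.309 to 0.524 FPKM in control libraries and 0.344 to 0.494 in PAMK libraries. The summed level of 5 mesenchymal markers was 436 to 567 FPKM in control libraries and 505 to 708 in PAMK libraries, and the part of this in the results below was not tested. S100a4 and Vim made up most of that sum, Pdgfrb lay under 0.5 FPKM in every library, and Col1a2 was at 0.0143, 81.0 and 61.7 FPKM in control libraries and at 0, 91.2 and 0 in PAMK libraries. All 3 endothelial markers and 2 of 3 haematopoietic markers lay under 0.5 FPKM in every library. The haematopoietic marker Cd68 was at 0.410, 0.821 and 0.910 FPKM in control libraries and at 1.64, 1.43 and 1.38 in PAMK libraries. FPKM counts sequenced fragments per length of transcript and per library size, so it is a level per length.

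Transcript assemblers join overlapping reads into models whether or not an annotation holds a gene at that place. A model with a spliced read receives a strand from the splice sites, while an unspliced model from a library without strand information receives none. Nameless models can arise from genes outside the annotation, from RNA made upstream of active promoters on either strand, from read-through past gene ends, or from small RNA genes and repeats that the annotation of long transcripts leaves out.

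Members that overlapped the promoter of their nearest coding gene are shown first, because their letters place them against a known start. RefSeq windows of GRCm38.p6 covered 250 bases before to 50 bases after a gene start. Of the 1750 members, 97 lay over any of the 32851 windows and 60 lay over the window of their nearest coding gene. Of these 60, 18 ran on the strand opposite to the gene, 26 on the same strand and 16 had no strand. The sequences below are the windows of 4 opposite-strand members. These had the highest mean level among those whose gene's RefSeq start lay within 50 bases of a deposited transcript start. This choice was made after their values were seen. Each sequence is written 5′ to 3′ on the gene's strand, and capitals mark the bases inside the member's span.
Fam120a: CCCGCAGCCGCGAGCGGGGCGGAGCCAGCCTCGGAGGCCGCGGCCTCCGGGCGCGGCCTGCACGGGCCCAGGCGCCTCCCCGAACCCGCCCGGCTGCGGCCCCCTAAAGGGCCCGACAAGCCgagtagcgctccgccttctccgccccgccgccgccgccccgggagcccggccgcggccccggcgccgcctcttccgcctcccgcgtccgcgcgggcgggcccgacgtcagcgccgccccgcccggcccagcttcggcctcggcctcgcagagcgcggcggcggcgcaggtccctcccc
Selenoi: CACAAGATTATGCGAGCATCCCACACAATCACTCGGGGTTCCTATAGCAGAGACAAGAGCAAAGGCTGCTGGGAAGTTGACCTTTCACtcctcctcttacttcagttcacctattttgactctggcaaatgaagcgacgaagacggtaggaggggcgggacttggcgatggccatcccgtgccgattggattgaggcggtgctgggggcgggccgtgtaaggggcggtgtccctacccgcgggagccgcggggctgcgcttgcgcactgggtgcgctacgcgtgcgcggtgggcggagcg
B4gat1: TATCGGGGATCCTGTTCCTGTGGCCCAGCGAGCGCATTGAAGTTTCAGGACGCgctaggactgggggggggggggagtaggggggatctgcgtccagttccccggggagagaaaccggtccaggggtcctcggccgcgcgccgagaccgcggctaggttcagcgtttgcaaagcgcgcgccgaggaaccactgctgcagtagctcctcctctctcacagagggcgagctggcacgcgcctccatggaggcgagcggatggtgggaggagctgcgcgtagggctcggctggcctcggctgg
Ggnbp2: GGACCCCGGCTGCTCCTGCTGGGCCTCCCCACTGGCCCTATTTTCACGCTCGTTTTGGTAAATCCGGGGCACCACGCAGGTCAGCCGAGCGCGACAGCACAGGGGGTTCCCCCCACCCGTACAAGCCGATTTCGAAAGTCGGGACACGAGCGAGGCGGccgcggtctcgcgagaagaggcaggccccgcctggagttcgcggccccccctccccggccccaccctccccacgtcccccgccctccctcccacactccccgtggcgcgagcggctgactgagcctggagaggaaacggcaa

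MSTRG.7467.1 covered the first 122 bases of the Fam120a window at chr13:48968011-48968310, on the strand opposite to this gene for an RNA-binding protein. Its level was 3.72, 4.62 and 3.61 FPKM in control libraries and 3.58, 3.83 and 3.83 in PAMK libraries, and the groups overlapped. Fam120a itself was at 60.8, 79.5 and 80.5 FPKM in control libraries and 65.2, 84.3 and 85.4 in PAMK libraries. The gene's level lay far above that of its upstream member in every library.

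MSTRG.20265.1 covered the first 88 bases of the window at chr5:30232331-30232630 before Selenoi, which makes the phospholipid phosphatidylethanolamine. The member was at 3.72, 3.48 and 3.79 FPKM in control libraries and at 3.74, 3.25 and 2.99 in PAMK libraries. Selenoi was at 6.70, 6.74 and 6.74 FPKM in control libraries and at 5.63, 6.40 and 6.996 in PAMK libraries. Both overlapped between groups.

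MSTRG.13695.1 covered the first 53 bases of the window at chr19:5038576-5038875 before B4gat1, a glucuronyltransferase that acts on the sugar chains of dystroglycan. The same member also spans the serine tRNA gene n-TSgct6 and the RefSeq lncRNA gene Gm30581, and what its level owes to each was not tested. The member was at 1.81, 2.13 and 2.80 FPKM in control libraries and at 2.84, 2.40 and 2.78 in PAMK libraries. B4gat1 varied more, at 4.62, 0.976 and 9.40 FPKM in control libraries and at 0.647, 0.509 and 0.685 in PAMK libraries. The member overlapped between groups while the gene did not, and the gene's difference did not pass the test over all coding genes (limma, Benjamini-Hochberg adjusted p = 0.498).

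MSTRG.5001.1 covered the first 158 bases of the window at chr11:84870741-84871040 before Ggnbp2, a gene for a gametogenetin-binding protein. It was at 2.22, 1.90 and 1.78 FPKM in control libraries and at 1.78, 1.81 and 1.48 in PAMK libraries, which overlap. Ggnbp2 was at 7.46, 8.26 and 8.51 FPKM in control libraries and at 9.03, 6.37 and 9.33 in PAMK libraries.

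Across all 60 members over the window of their nearest coding gene, 56 of those genes (93.3%) had a mean of at least 0.5 FPKM. The median level was 7.36 FPKM for the genes and 1.13 FPKM for the members. Median GC content was 66.3% in the windows under these members, 52.7% in all windows and 61.3% in the windows of coding genes at 0.5 FPKM or more. The hexamer GGGCGG, searched on both strands, was present in 63.3% of the windows under members, 35.7% of all windows and 64.7% of those of the expressed genes. CCAAT was present in 36.7%, 37.4% and 38.5% of the same 3 sets, and TATAAA in 6.67%, 13.6% and 6.69%. In GC content and in the share with GGGCGG, the windows under members stood nearer to those of expressed genes than to all windows. As 56 of the 60 genes were themselves in the expressed set, this nearness was largely given beforehand and says nothing of the members.

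The members were mostly short and without a strand. The distance from first to last base, here called the span, ran from 201 to 213998 bases with a median of 497 and quartiles of 297 and 1210.5. No strand was given for 1294 of the 1750 (73.9%), while 232 were on the plus and 224 on the minus strand. Median span was 391 bases without a strand and 1897.5 bases with one, and all 39 members over 10000 bases had a strand. Assembled transcripts with a gene name had a median span of 1351 bases and annotated lncRNA transcripts one of 4609.5 bases. Median level differed less with strand, at 1.03 FPKM without and 1.37 FPKM with a strand.

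None of the 1750 members overlapped a deposited coding transcript, against 81.6% of the assembled transcripts with a gene name and 73.1% of the annotated ones. Members were chosen for lacking a gene name, and how names were given is not stated, so this absence may follow from that choice. Distance to the nearest coding transcript ran from 3 to 1642013 bases, with a median of 7431 and quartiles of 2620 and 32171. Within 10 kb lay 988 members (56.5%), another 530 lay at 10 to 100 kb and 232 lay beyond 100 kb. When coding transcripts averaging under 0.5 FPKM were left aside, 811 members lay within 10 kb and the median distance was 12356 bases.

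The nearest coding gene was more often expressed where it was close. It reached a mean of 0.5 FPKM for 80.9% of members within 10 kb, 53.0% of those at 10 to 100 kb and 37.5% of those beyond 100 kb. Among all 21771 coding genes this share was 44.9%. The members' own level hardly moved with distance, with medians of 1.07, 1.06 and 1.20 FPKM in the same order. Across the 988 members within 10 kb, the Spearman correlation between the mean level of a member and that of its nearest gene was -0.01, given as a description since members share libraries and often a neighbour.

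Upstream and downstream of coding transcripts the members were placed differently. Upstream of their nearest coding transcript lay 982 members and downstream 768. Less than 1 kb upstream there were 212 members, 120 of them without strand, 50 on the gene's strand and 42 opposite to it. Less than 1 kb downstream there were 23, all with a strand. Of the 589 downstream members without strand, the closest lay 2012 bases away and 98 lay between 2 and 3 kb, whereas 183 of the 705 upstream members without strand lay nearer than 2 kb. What made this edge was not tested, and filters applied before deposit were not stated.

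**Figure D1:**
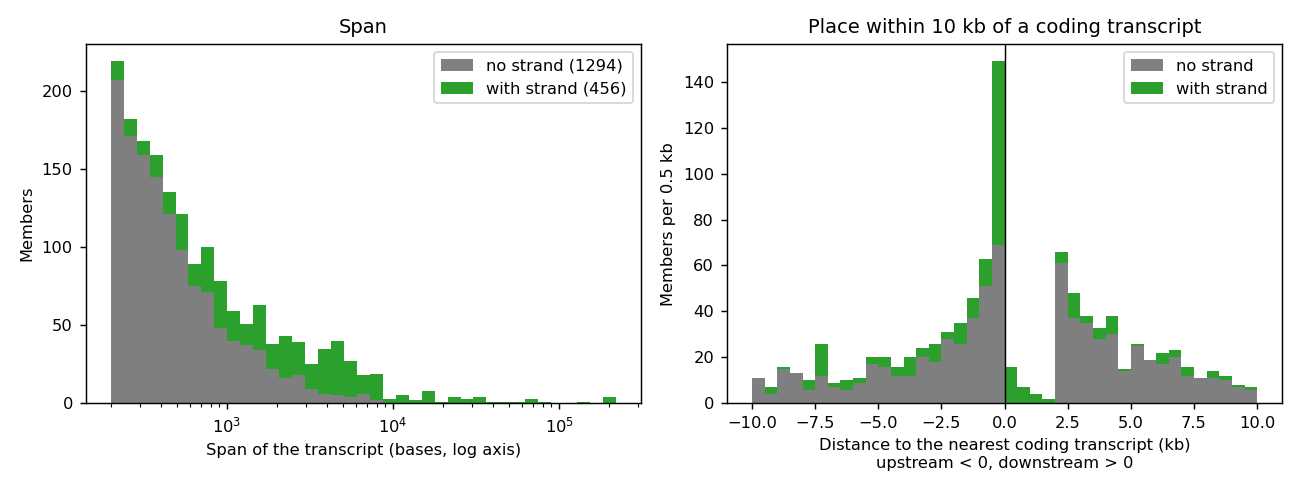
Stacked counts of members by span in bases on a log axis (left) and by distance in kb to the nearest coding transcript within 10 kb (right), grey for the 1294 without and green for the 456 with a strand. Members crowd just upstream of coding transcripts, and those without a strand are missing from the first 2 kb downstream.

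Members occurred on chromosomes 1 to 19, X and Y, in numbers that varied against those of expressed genes. For every 100 coding genes with a mean of at least 0.5 FPKM there were 17.9 members in all, from 9.42 on chromosome 9 to 29.3 on chromosome 15. Chromosome 5 had the most, with 138, and chromosome 15 had 116 beside 396 expressed coding genes. The Y chromosome carried 21 members although none of its 172 coding genes reached 0.5 FPKM. The Y-linked genes Ddx3y, Eif2s3y, Kdm5d, Uty, Zfy1 and Usp9y were listed at 0 in all 6 libraries, and the highest Y-linked coding gene, Gm21748, had a mean of 0.217 FPKM.

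**Figure D2:**
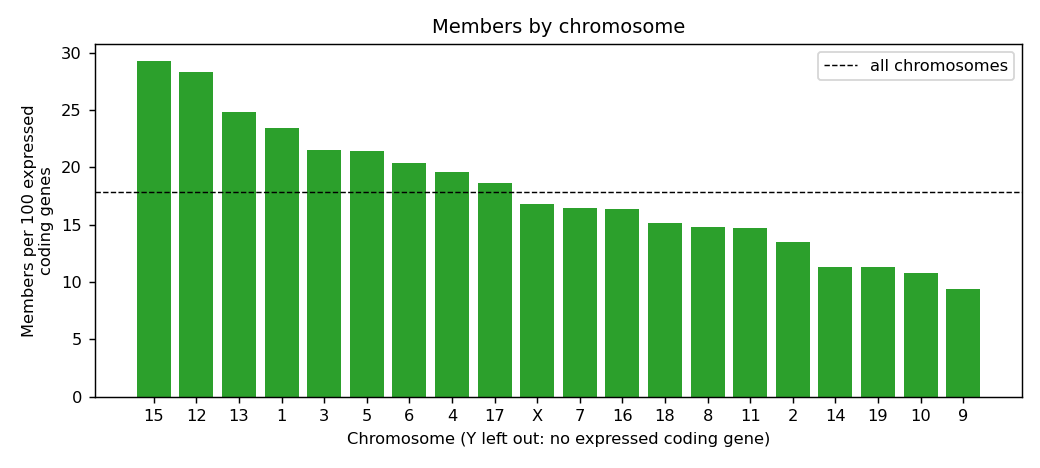
Bars give members per 100 coding genes with a mean of at least 0.5 FPKM on each chromosome, and the dashed line gives the value over all chromosomes, 17.9. Chromosomes 15 and 12 stand highest and chromosome 9 lowest.

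Many members lay in rows along a chromosome. Joining members at most 5 kb apart gave 1316 runs, of which 1080 held 1 locus, 166 held 2 and 70 held at least 3, and runs of 2 or more loci held 655 members (37.4%). A run of 7 members without strand stretched over 17294 bases of chromosome 5 beside Med13l, a gene for a subunit of the Mediator complex. Its summed level was 7.65, 6.60 and 7.79 FPKM in control libraries and 7.06, 6.93 and 7.25 in PAMK libraries. On chromosome 12 a run of 4 members lay beside Fbxo33, a gene for an F-box protein, with sums of 25.8, 22.8 and 22.1 FPKM in control libraries and 20.5, 23.1 and 24.2 in PAMK libraries. Both of these runs overlapped between the groups. Another of 4 members at chr12:19861915-19876853 did not, at 5.16, 2.92 and 2.53 FPKM in control libraries and 6.73, 5.25 and 5.28 in PAMK libraries. That run includes MSTRG.5925.1, named below for its small p, at 0, 0 and 0.157 FPKM in control libraries and 2.27, 1.20 and 0.987 in PAMK libraries. Without MSTRG.5925.1 the sums overlap between the groups. Sums of runs were not tested. Opposite strands overlapped in 90 pairs formed by 85 members.

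RefSeq positions gave some of the members a known neighbour or host. The deposited positions matched GRCm38.p6 closely, with 20820 of 20822 shared coding symbols overlapping the RefSeq gene of the same name. No RefSeq gene of any kind overlapped 1340 members. Of the 410 others, 183 overlapped a lncRNA gene, 167 a protein-coding gene, 43 a transfer RNA (tRNA) gene and 38 a pseudogene, and a member could fall under more than 1 kind. None overlapped a microRNA, small nucleolar or small nuclear RNA gene.

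Transfer RNAs carry amino acids to the ribosome and are transcribed by RNA polymerase III from short genes that often lie in clusters. Among rows under 2000 bases, a tRNA gene lay under 2.95% of the members (43 of 1457), 0.212% of assembled transcripts with a gene name (6 of 2835) and 0.0227% of annotated transcripts (2 of 8823). Of the 43 members, 42 had no strand and their median span was 350 bases. Chromosome 13 held 17 of them, and 105 of the 430 RefSeq tRNA genes. Their mean level ranged from 0.580 to 56.0 FPKM with a median of 1.72.

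The highest of them, MSTRG.15905.1, spanned the histidine tRNA gene n-THgtg5 and was at 56.3, 69.5 and 63.8 FPKM in control libraries and at 46.6, 50.6 and 49.2 in PAMK libraries. MSTRG.8829.1 spanned the tyrosine tRNA gene n-TYgta10, at 16.2, 17.8 and 21.6 FPKM in control libraries and at 15.5, 14.4 and 13.8 in PAMK libraries. MSTRG.7147.1 spanned the alanine tRNA gene n-TAtgc11, at 11.2, 11.3 and 11.7 FPKM in control libraries and at 7.66, 8.13 and 7.80 in PAMK libraries. In all 3, every control library lay above every PAMK library, yet none passed the test (limma, Benjamini-Hochberg adjusted p = 0.858, 0.874 and 0.780). The 43 levels summed to 179, 204 and 199 FPKM in control libraries and to 169, 163 and 157 in PAMK libraries. Without MSTRG.15905.1 the sums were 122, 134 and 136 against 123, 112 and 108, which overlap.

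As a group, 29 of these 43 members had a log2 fold change below 0 (67.4%), with a median of -0.22, where 46.5% of all tested members and 45.1% of all tested rows lay below 0. With libraries scaled to equal medians 32 of the 43 lay below 0, beside 51.3% of tested members and 49.7% of rows, and with quantile normalization 31 did, beside 49.8% and 50.6%. None passed the adjusted test, and 4 (9.30%) had an unadjusted p under 0.05, 3 of them lower with PAMK, where 7.99% of tested members and 5.76% of all tested rows were under that p.

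Most members were low but present in every library. The mean over the 6 libraries lay under 0.1 FPKM for 10 members, at 0.1 to 0.5 for 115, at 0.5 to 1 for 598, at 1 to 2 for 719, at 2 to 10 for 258, at 10 to 100 for 40 and at 100 or more for 10. The files write 0.0001 FPKM where a transcript has no measured level, and this placeholder was set to 0. All 6 libraries had a value above it for 1565 members (89.4%), against 87.0% of assembled transcripts with a gene name and 46.9% of annotated ones. Of the remainder, 28 members had a value in 1 library only, 9 of these in PAMK 2, and 6 had none. Assembled rows exist only where reads were joined, while annotated rows are listed with or without reads. Of the 36177 annotated rows, 13658 had no value in any library, so the contrast with them was largely given beforehand.

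The median member stood at 1.32, 1.02 and 1.04 FPKM in control libraries and at 1.15, 1.14 and 1.16 in PAMK libraries. Control 1 was the highest of the 6 libraries for 485 members, where each other library was highest for 193 to 287. Assembled transcripts with a gene name also had their highest median in control 1, at 1.59 FPKM, where the other 5 libraries had 1.07 to 1.30. The part of this shift in the comparisons below was tested by equal medians and by leaving control 1 out.

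A few members held much of the signal. The 5 members with the highest mean over the 6 libraries made up 46.5% to 71.3% of each library's summed member level. The highest mean belonged to MSTRG.18992.1 at chr4:101869013-101869392, 380 bases without strand and 20628 bases downstream of C130073F10Rik. It was at 1819, 1930 and 1994 FPKM in control libraries and at 1937, 1959 and 2015 in PAMK libraries, so the groups overlapped. MSTRG.5082.1 at chr11:88893443-88894230 lay 28857 bases upstream of Akap1, a gene for a scaffold of protein kinase A at mitochondria. It was at 1390, 1424 and 1503 FPKM in control libraries and at 1825, 1846 and 1724 in PAMK libraries. Its groups did not overlap, but the difference of 0.32 ± 0.31 (SE) on the log2(FPKM + 0.1) scale did not pass (limma, Benjamini-Hochberg adjusted p = 0.914). This SE draws on other rows of like level and is wider than the member's own libraries would give. Its own SD was 58.2 FPKM around a control mean of 1439 and 65.1 FPKM around a PAMK mean of 1799.

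MSTRG.18457.1, 2351 bases at chr4:32792573-32794923 and over the RefSeq pseudogene Gm42267, had the narrowest range of the 15 highest members relative to its level. It was at 305, 314 and 313 FPKM in control libraries and at 319, 317 and 315 in PAMK libraries. These ranges did not overlap, though they differed by little. The difference was 0.03 ± 0.21 on the log2 scale (limma, Benjamini-Hochberg adjusted p = 0.996). This SE too is wider than the member's own libraries would give, with an SD of 5.04 FPKM in control and 1.84 in PAMK libraries.

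Other high members changed from library to library within a group. MSTRG.12323.3, 3263 bases at chr17:39842994-39846256, was at 5393 FPKM in PAMK 2 and listed at 0 in the other 5 libraries. It was the only nameless transcript of its locus. How reads were divided between it and any other transcript under that assembler number was not tested. MSTRG.19467.1, 338 bases at chr4:133098458-133098795, was at 905, 44.4 and 861 FPKM in control libraries and at 451, 932 and 60.5 in PAMK libraries. MSTRG.21060.1, 3575 bases at chr5:109901940-109905514, was at 716, 318 and 44.3 FPKM in control libraries and at 0, 253 and 209 in PAMK libraries. None of the 3 separated the groups.

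MSTRG.744.1, 806 bases at chrY:58851119-58851924, was at 158, 182 and 703 FPKM in control libraries and at 439, 692 and 575 in PAMK libraries. The other 20 Y-linked members had means of 0.425 to 4.93 FPKM. Of the 50 members with a mean of at least 10 FPKM, 18 had a highest library within 1.5 times their lowest and 13 had one over 4 times their lowest.

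**Figure D3:**
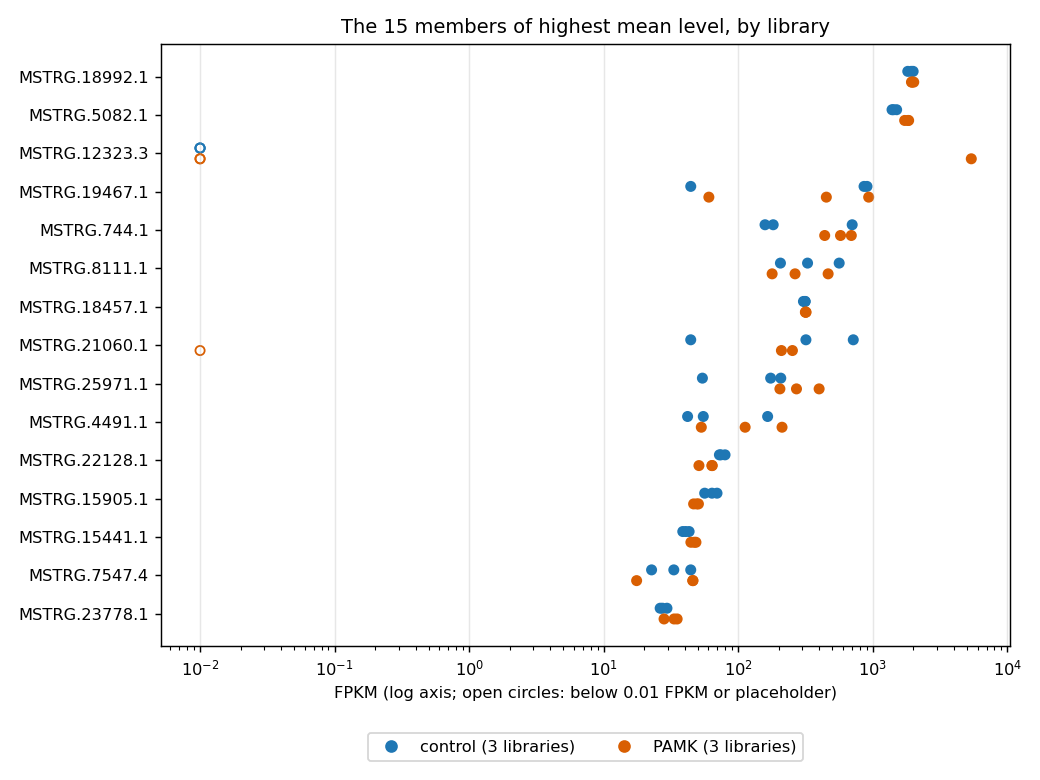
Each row shows the 6 library values, in FPKM on a log axis, of 1 of the 15 members with the highest mean, blue for control and orange for PAMK, with open circles for values at the placeholder. MSTRG.18992.1 and MSTRG.18457.1 sit within narrow ranges while MSTRG.12323.3, MSTRG.19467.1 and MSTRG.21060.1 spread widely inside a group.

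Per library, totals of the members did not separate PAMK from control. The number of members above the placeholder was 1667, 1680 and 1669 in control libraries and 1659, 1669 and 1669 in PAMK libraries (two-sided exact permutation test, p = 0.6). The summed level was 9184, 7707 and 9461 FPKM in control libraries and 8909, 15189 and 9006 in PAMK libraries (exact permutation p = 0.6), and the value of PAMK 2 rested on MSTRG.12323.3. Members made up 11.0%, 9.01% and 10.7% of the summed level of the lncRNA table in control libraries and 11.1%, 17.8% and 10.7% in PAMK libraries (exact permutation p = 0.2). Without the 5 highest members the sums were 4913, 4127 and 4401 FPKM against 4256, 4366 and 4631 (exact permutation p = 0.8). Summed separately within 10 kb, at 10 to 100 kb and beyond 100 kb of a coding transcript, the exact permutation p was 0.7, 0.6 and 0.7. All 6 values were 0.7 after Benjamini-Hochberg adjustment over these exact permutation tests, and 3 libraries against 3 cannot give a p under 0.1.

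The main comparison asked which members differed between PAMK and control cells. Of the 1750 members, 1740 had a mean of at least 0.1 FPKM and were tested among 23670 rows. One passed, MSTRG.24042.1 (limma, Benjamini-Hochberg adjusted p = 0.0407), where 0.038% of all tested rows passed and 0.0253% passed with a higher level in PAMK libraries. The other 1739 did not, which does not show that they were alike in both groups.

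MSTRG.24042.1 spans 334 bases without strand at chr7:30696952-30697285, 2498 bases upstream of 2200002J24Rik, which was itself listed at 0 in all 6 libraries. The member was listed at 0 in all 3 control libraries and was at 0.950, 1.33 and 0.937 FPKM in PAMK libraries. All PAMK values were thus near the median level of the members, and no fold is given against a group at 0. The call was lost whichever library was left out, with Benjamini-Hochberg adjusted p of 0.0803 to 0.131 in limma. It was the only member listed at 0 throughout one group and at 0.5 FPKM or more throughout the other, a pattern met by 0.0187% of all 42870 rows.

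At an unadjusted p under 0.05 there were 139 members, 7.99% of those tested against 5.76% of all tested rows. Of these, 85 were higher and 54 lower with PAMK, so that 61.2% were higher, where 62.8% of all rows under that p were higher. Scaling the libraries to equal medians, which moved the median log2 fold change of all rows from 0.05 to 0.00, gave 147 members with 49.0% higher and left 54.0% higher among all rows. All 3 values of one group lay beyond all 3 of the other for 243 of the 1740 members (13.97%), 142 higher and 101 lower, against 11.3% of all tested rows.

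Members with higher values in PAMK libraries, without passing, included several beside genes of known role. MSTRG.28577.1, 949 bases upstream of a deposited transcript of Nktr, a gene for a cyclophilin-domain protein of natural killer cells, was at 0.751, 0.895 and 0.915 FPKM in control libraries and at 3.23, 2.24 and 2.29 in PAMK libraries. RefSeq places this member inside Nktr. The difference was 1.48 ± 0.23 on the log2 scale (limma, Benjamini-Hochberg adjusted p = 0.274). MSTRG.199.1, 6815 bases upstream of the purine salvage gene Hprt, was at 4.42, 3.98 and 5.39 FPKM in control libraries and at 9.58, 8.29 and 7.58 in PAMK libraries. Hprt itself was at 31.9, 33.5 and 35.7 against 32.1, 31.8 and 33.5 FPKM, so its groups overlapped where those of the member did not.

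MSTRG.6685.1, a minus-strand member of 785 bases and 10121 bases from Gm10436, was at 3.87, 3.44 and 3.73 FPKM in control libraries and at 15.3, 12.2 and 8.14 in PAMK libraries. MSTRG.8286.1, 1197 bases without strand and 41014 bases upstream of the cell adhesion gene Emb, was at 23.2, 20.6 and 21.2 FPKM in control libraries and at 34.7, 34.0 and 31.2 in PAMK libraries. Emb was listed at 0 in all 6 libraries. MSTRG.5925.1, 1764 bases on the minus strand of chromosome 12, was at 0, 0 and 0.157 FPKM in control libraries and at 2.27, 1.20 and 0.987 in PAMK libraries. In each of the 3 the lowest PAMK library exceeded the highest control library, with Benjamini-Hochberg adjusted p of 0.294, 0.752 and 0.266 in limma.

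Of the members with lower values in PAMK libraries, MSTRG.26244.1 had the smallest p. It spans 4885 bases on the minus strand, 1728 bases upstream of Ap1m1, a gene for a subunit of the clathrin adaptor complex, and runs opposite to it. Its level was 18.8, 17.3 and 16.0 FPKM in control libraries and 7.23, 7.76 and 9.75 in PAMK libraries. All control values were above all PAMK values, a difference of -1.07 ± 0.18 on the log2 scale that did not pass (limma, Benjamini-Hochberg adjusted p = 0.343). MSTRG.26245.1, a member on the plus strand with the same first base and 4933 bases long, was at 12.8, 19.1 and 24.8 FPKM in control libraries and at 14.8, 19.5 and 18.8 in PAMK libraries. This partner overlapped between groups, and how reads were divided between the strands of such a pair was not tested.

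MSTRG.25909.1, 13641 bases upstream of Gtf2e2, a gene for a subunit of the general transcription factor TFIIE, was at 4.41, 3.81 and 3.54 FPKM in control libraries and at 2.07, 1.34 and 1.78 in PAMK libraries. MSTRG.4081.1, 809 bases upstream of the actin-branching gene Actr2, was at 0.957, 1.70 and 1.07 FPKM in control libraries and at 0.427, 0.537 and 0.544 in PAMK libraries. MSTRG.17532.1, 2413 bases upstream of the anti-apoptotic gene Mcl1, was at 0.842, 1.23 and 0.965 FPKM in control libraries and at 0.387, 0.426 and 0.533 in PAMK libraries. The groups did not overlap in any of the 3, and Benjamini-Hochberg adjusted p in limma was 0.429, 0.752 and 0.752.

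MSTRG.4989.1, 2718 bases downstream of 1700125H20Rik, was at 1.66, 0.253 and 1.74 FPKM in control libraries and listed at 0 in all PAMK libraries (limma, Benjamini-Hochberg adjusted p = 0.468). MSTRG.6006.1, 497 bases on chromosome 12, was at 2.13, 4.67 and 4.94 FPKM in control libraries and at 0, 0.712 and 0 in PAMK libraries (limma, Benjamini-Hochberg adjusted p = 0.531). Both were near or at 0 in the PAMK group alone, yet control 2 of the first and control 1 of the second lay well below the other control libraries.

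**Figure D4:**
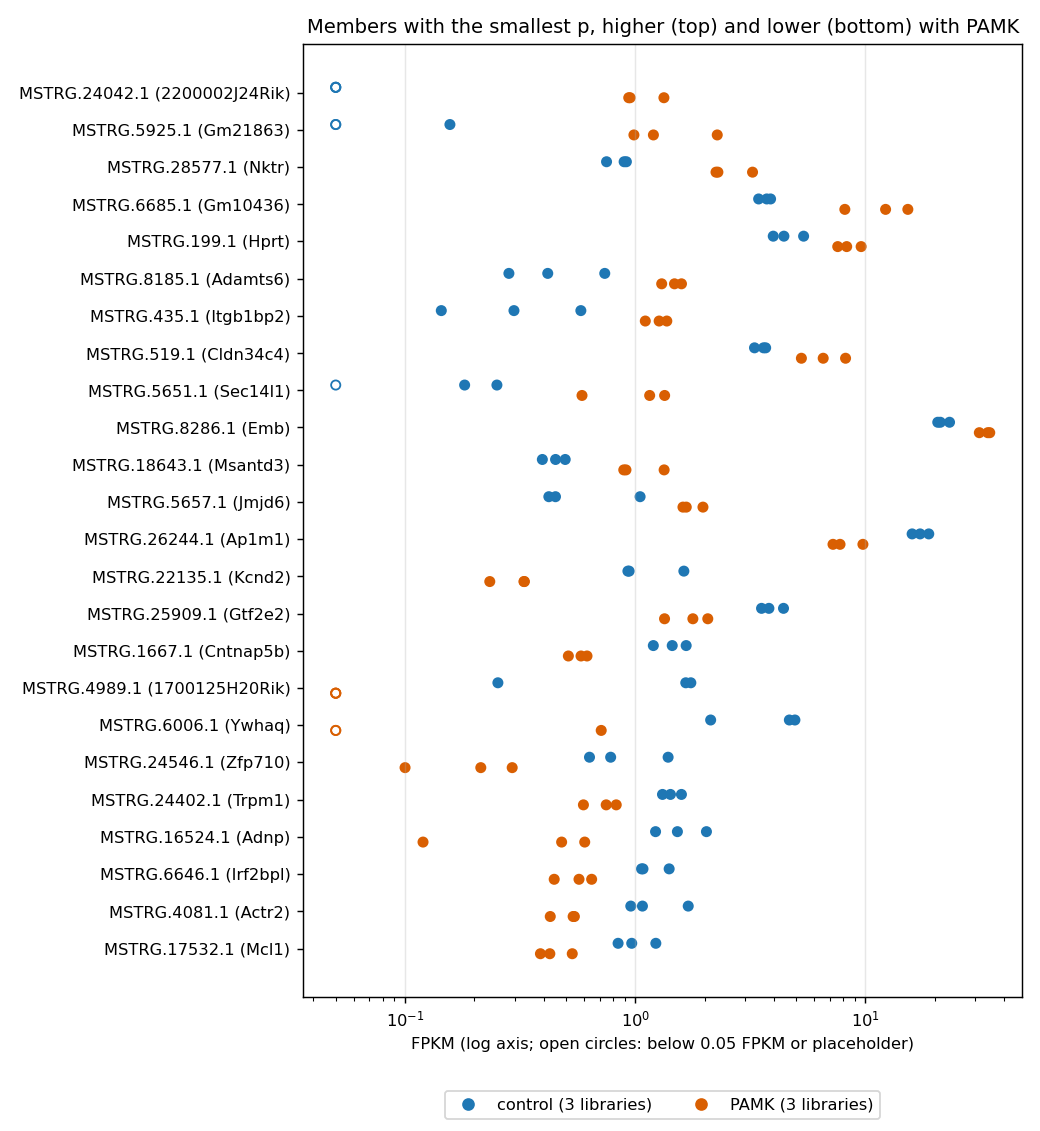
Library values in FPKM on a log axis for the 12 members higher and the 12 lower with PAMK that had the smallest unadjusted p and no overlap between groups, with the nearest coding gene in brackets. Blue stands for control and orange for PAMK, open circles for values below 0.05 FPKM, and in the whole set MSTRG.24042.1 was the member past the adjusted threshold.

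**Figure D5:**
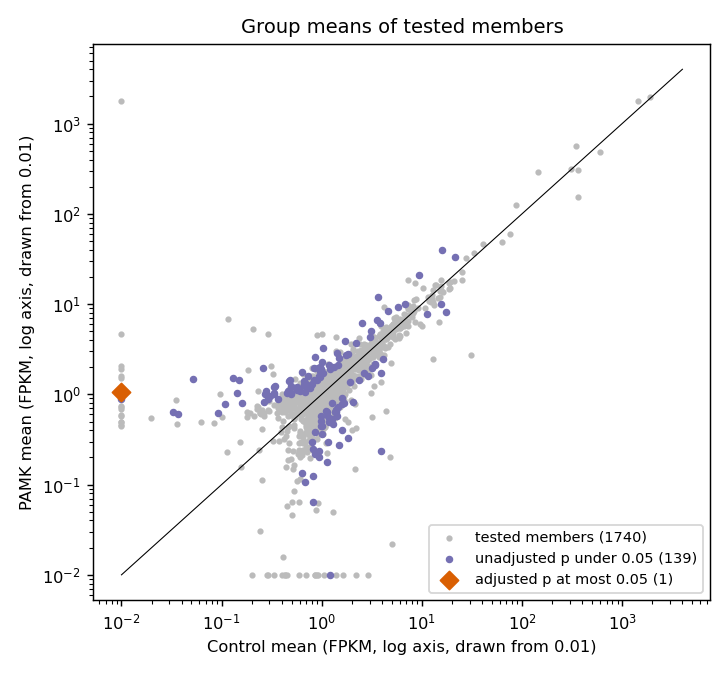
Control against PAMK mean in FPKM on log axes for the 1740 tested members, with the line of equality. The 139 members with an unadjusted p under 0.05 lie on both sides of the line, and the diamond is MSTRG.24042.1, at 0 in control libraries and drawn at the left edge.

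No nearest coding gene of a tested member passed the test over coding genes, in 1159 cases where both could be tested, and 0.0716% of all 9781 tested coding genes passed (limma, Benjamini-Hochberg adjusted). The log2 fold changes of the 1159 had a Pearson correlation of 0.04, and 53.8% had the same sign, given as a description since all share the same 6 libraries. Both had an unadjusted p under 0.05 in 11 cases (0.949%), 6 with the same sign and 5 with opposite signs. Taken singly, 7.51% of these members and 13.3% of these nearest genes were under that p, beside 10.0% of all tested coding genes.

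Among these 11, MSTRG.9886.1 lay 596 bases upstream of Zc3h3, a zinc finger gene, at 1.11, 0.972 and 0.815 FPKM in control libraries and 1.63, 1.42 and 1.59 in PAMK libraries, while Zc3h3 was at 2.41, 2.30 and 2.29 against 3.15, 3.19 and 3.08. MSTRG.22192.1 lay 550 bases upstream of Nrf1, a gene for a transcription factor of mitochondrial function, at 0.238, 0.552 and 0.700 FPKM against 1.05, 1.45 and 1.19, and Nrf1 was at 5.18, 4.51 and 4.41 against 6.57, 7.18 and 5.25. In both cases member and gene had their higher values in PAMK libraries.

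In the opposite direction, MSTRG.22179.1 lay 555 bases upstream of the actin crosslinker gene Flnc, at 1.56, 0.711 and 0.282 FPKM in control libraries and 0.180, 0.258 and 0.211 in PAMK libraries, while Flnc was at 87.5, 88.7 and 87.7 against 101, 100.4 and 99.7. MSTRG.25024.1 lay 985 bases upstream of Rras2, a gene for a small GTPase, at 0.874, 0.541 and 0.568 FPKM against 1.24, 1.46 and 1.13, and Rras2 was at 59.5, 58.9 and 56.7 against 54.2, 54.2 and 53.5. In these cases gene and member had their higher values in different groups. Adjusted p for all 4 members lay between 0.819 and 0.858 in limma with Benjamini-Hochberg adjustment.

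Summing nameless transcripts by assembler locus tested 1658 loci among 14429. None passed (limma, Benjamini-Hochberg adjusted), where 0.0139% of all tested loci passed, and 149 (8.99%) had an unadjusted p under 0.05, against 5.94% of all tested loci. Assembled transcripts with a gene name under the same assembler number were kept apart from these sums.

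The largest locus, MSTRG.5042, held 14 nameless transcripts beside Dhx40, a gene for a helicase. Of the 14, 8 had a value in all 6 libraries and 3 in 1 library only. MSTRG.5042.13 was at 13.9 FPKM in PAMK 2 and listed at 0 elsewhere, and MSTRG.5042.2 was at 17.2, 1.69 and 2.95 FPKM in control libraries and at 27.6, 26.4 and 1.93 in PAMK libraries. Their sum over the locus was 63.3, 38.8 and 48.4 FPKM in control libraries and 66.0, 71.5 and 47.0 in PAMK libraries. The sum thus varied less between libraries than these individual transcripts did, and the groups overlapped.

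MSTRG.18327 held 8 transcripts, 141587 bases from Rab2a, a gene for a GTPase of the secretory pathway. Its sum was 51.8, 56.6 and 52.7 FPKM in control libraries and 52.2, 64.6 and 53.0 in PAMK libraries. One of its transcripts, MSTRG.18327.7, was at 20.2 FPKM in PAMK 2, at 0.346 in control 2 and at 0 in the other libraries. MSTRG.7546 held 4 transcripts 15762 bases from Fgfr4, a fibroblast growth factor receptor gene, with sums of 8.34, 7.53 and 6.63 FPKM in control libraries and 13.5, 14.3 and 11.1 in PAMK libraries. The groups of MSTRG.7546 did not overlap, a difference of 0.78 ± 0.18 on the log2 scale that did not pass (limma, Benjamini-Hochberg adjusted p = 0.676). Within its span lies the higher locus MSTRG.7547, at 65.1, 91.5 and 60.7 FPKM in control libraries and 80.6, 115 and 84.4 in PAMK libraries, which overlap. How reads were divided between these loci was not tested.

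The longest and the farthest members ranged widely in level, and MSTRG.6702.1, 1254762 bases from Sel1l, had a value in 3 of the 6 libraries. MSTRG.20514.1 spanned 213998 bases upstream of the axon guidance gene Slit2, at 2.86, 0.760 and 1.76 FPKM in control libraries and at 1.56, 1.36 and 2.77 in PAMK libraries. Farthest of all, MSTRG.3008.1 lay 1642013 bases from the glutamate receptor gene Grik2, at 1.33, 1.49 and 0.875 FPKM against 0.912, 0.698 and 0.803. MSTRG.1107.1, 1353983 bases from Tmeff2, was at 18.3, 22.3 and 22.3 FPKM against 14.99, 20.2 and 19.2. This placed it among the 50 members at a mean of 10 FPKM or more, while its nearest coding gene had a mean of 0.0097 FPKM. All 3 overlapped between groups.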

How the data were processed

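Members were taken by name prefix and missing gene name. The values deposited by the authors were read as FPKM per transcript, a unit inferred from the StringTie layout since the file headers call them normalized counts. Cutadapt, FastQC, HISAT2, StringTie and edgeR were used per the submitters' processing notes. Not given in the sources used here are their versions, the build, the annotation and whether reads were counted by strand. Depth is unknown, so no counting interval is given. Positions are as deposited, in an unnamed build, and RefSeq names and windows are of GRCm38.p6.

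The placeholder of 0.0001 FPKM was set to 0. Rows whose 6 libraries averaged 0.1 FPKM or more were tested with limma 3.58.1 in R 4.3.3 on log2(FPKM + 0.1), two-sided, with an intensity trend and Benjamini-Hochberg adjustment at 0.05 over all 23670 rows. Fold changes on this scale understate changes of low rows. The fit draws each row's variance towards that of rows of like level, so an SE can differ from the row's own spread. Coding transcripts were summed by gene and tested on log2(FPKM + 1) from a mean of 0.5 FPKM. Per-library totals were compared with exact permutation tests (scipy 1.17.1).

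Members, lists and the rule for naming were chosen with earlier results of these data known. That rule took members past the threshold, the 12 higher and 12 lower of smallest p without overlap between groups, those on or off by group, the 15 of highest mean, the 6 longest, the 6 farthest, and the 6 largest loci. Members named beside these (over promoters or tRNA genes, in runs, or with a nearest gene at a small p) were chosen after their values were seen. In simulated data with 23670 rows, 3% of 2-fold and 54% of 8-fold changes of members were called, with 3 false calls, and 0 calls with nothing changed. Small RNA libraries were not used here.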

Additional observations from a re-analysis of the deposited data

How the results depend on the processing

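The count of 1 member past the threshold fell to 0 with a pseudocount of 1 or 0.01, with no filter on low values, with a mean of at least 0.5 FPKM and with the replicate block, and was 0 to 1 when each library was left out. The 1 member called without PAMK 2 was MSTRG.11622.1, not MSTRG.24042.1. It remained 1 with equal medians, quantile normalization, eBayes without trend and robust eBayes. The replicate numbers did not pair the libraries: same-numbered deviations correlated at -0.04, -0.01 and -0.05. The count of 0 loci became 1 with no filter and 1 without trend, and was 0 to 1 with a library left out, at 1 without PAMK 2 and without PAMK 3. Members on or off by group went from 1 to 2 at 0.1 FPKM and to 0 at 1 FPKM. Without control 1, 184 members had an unadjusted p under 0.05 (10.6%, against 8.06% of rows), not 139.

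PAMK minus control differences of library totals reversed from -6.33 to 30.7 members when only those at 1 FPKM or more were counted, from 2250 to -62.7 FPKM without the 5 highest members, and from 2.97 to -0.23 percentage points in the share of the lncRNA table without the 5 highest members and other rows. Without PAMK 2 they were 173 FPKM and 0.685 points, and over all libraries left out in turn 173 to 3313 FPKM and 0.685 to 4.23 points. The causes were not tested. Of 765 alternative values for 51 named members, 754 kept direction where called and side of the threshold, and the 11 others all belong to MSTRG.24042.1. Direction was not counted for members that were not called, and some of them changed sign. MSTRG.19467.1 went from a log2 fold change of -0.15 to 0.99 without PAMK 3, and MSTRG.20514.1 from 0.18 to -0.30 without control 2. The unknown depth limits what can be said of levels near the placeholder.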
